A study of Mus musculus with 32 samples.

Results

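The effect of adding a Tfap2c transgene was measured at day 2 in primordial germ cell-like cells (TF-PGCLCs) that were induced from mouse epiblast-like cells by transcription factors. The members were the 8 day 2 arrays labelled BP14A, P14A, BP14 or P14, of 32 arrays in the whole series, and the readout was the level of 14878 autosomal genes out of 15497 tested. The difference was taken as the mean of the BP14A and P14A groups (4 arrays) minus the mean of the BP14 and P14 groups (4 arrays), which is the Tfap2c main effect of a design that crosses the Tfap2c transgene with the Blimp1 transgene. Each of the 4 groups came from a clone of its own and held 2 arrays, called biological duplicates in the design text.

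All cells were labelled male, of mixed C57BL/6 and 129 background, and carried the reporters Blimp1-mVenus and stella-ECFP and the doxycycline-controlled activator Rosa26-rtTA. BP14A cells carried doxycycline-driven Blimp1, Prdm14 and Tfap2c, P14A cells Prdm14 and Tfap2c, BP14 cells Blimp1 and Prdm14, and P14 cells Prdm14 alone. All 4 therefore carried the Prdm14 transgene. Each factor sat behind a tetO promoter in a piggyBac transposon vector. Parental cells, the same line without factor transgenes, received the same doxycycline (1.5 µg/ml) and were also profiled at day 2 on 2 arrays. ESCs had been turned into epiblast-like cells for 36 h before aggregation with doxycycline and without the cytokines used in the other induction route. No sort is named in the labels of these cells. The RNA was amplified by PCR from small numbers of cells, so that fewer cells of a type and less RNA per cell cannot be told apart, and the Tfap2c transgene and the identity of the clone cannot be told apart either.

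Tfap2c, also called AP-2 gamma, is a DNA-binding transcription factor of the AP-2 family that recognises GC-rich sites. With Blimp1 (gene Prdm1), a transcriptional repressor, and Prdm14, a regulator of pluripotency and DNA methylation, it is needed for the specification of mouse primordial germ cells, in which the programme of the surrounding somatic cells is silenced. Outside the germ line, AP-2 factors act in trophoblast, surface ectoderm, neural crest and mammary epithelium.

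Over the tested genes, r was 0.9663 to 0.986 between replicate arrays of the 4 groups and 0.9593 to 0.9881 between arrays of different groups, so the ranges overlapped. One of the 8 arrays stood apart in the Gapdh control signal. On BP14 replicate 1, the 5′ Gapdh control probe set lay 4.07 log2 units below the 3′ one (difference -4.07), whereas on the other 7 arrays the difference ran from -1.03 to -0.09. Elsewhere in the series the difference reached -4.66, on replicate 1 of BP14A cells at day 4. Whether RNA integrity or the amplification lay behind these values was not tested. The clones also differed off the autosomes. The Y-linked gene Eif2s3y, a translation initiation factor subunit, had log2 levels of 7.73 and 6.68 in BP14A and 9.41 and 9.54 in P14A cells, against 9.30 and 9.02 in BP14 and 2.14 and 2.26 in P14 cells. The Y-linked Uty and Kdm5d were lowest in P14 cells too, although these cells are labelled male, and so were Mid1 and Erdr1, which the annotation lists on X. Autosomal genes alone are therefore reported below, with levels as log2 values normalized across arrays. Levels under 4.05 were treated as dim. Median main effects of the single autosomes lay between -0.04 and 0.00.

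The level of Tfap2c itself did not separate cells with the Tfap2c transgene from cells without it. The brightest of the 3 Tfap2c probe sets read 11.67 and 11.44 in BP14A and 11.53 and 11.41 in P14A cells, against 11.89 and 11.44 in BP14, 11.72 and 11.61 in P14 and 7.25 and 7.04 in parental cells. The groups with and without the transgene overlapped, and all 4 lay above the parental cells (main effect -0.15, SE 0.21, limma adjusted p = 0.904). The other Tfap2c probe sets had main effects of -0.23 and 0.37 with adjusted p = 0.762 and 0.836 in a fit over all probe sets. On the second of these, BP14 replicate 1 was low at 8.51, and the other 7 arrays lay between 10.03 and 10.15. Whether these probe sets read the transgene, the endogenous gene or both is not known from the labels, so the arrays do not check the label of the transgene.

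Prdm1 was alike with and without the Tfap2c transgene. Its levels were 10.25 and 10.13 in BP14A and 10.09 and 10.05 in P14A cells, against 9.86 and 10.19 in BP14, 10.29 and 10.17 in P14 and 5.49 and 5.77 in parental cells (main effect 0.00, SE 0.23, limma adjusted p = 0.998). Levels in P14A and P14 cells, which carry no Blimp1 transgene, overlapped those in the Blimp1 clones. Prdm14 read 8.61 and 8.32 in BP14A and 8.60 and 8.46 in P14A cells, against 9.83 and 9.19 in BP14 and 9.45 and 9.11 in P14 cells. All 4 arrays with the Tfap2c transgene were below all 4 without it. The difference of -0.90 (SE 0.18) was under 2-fold and missed the threshold (limma adjusted p = 0.0565). Alternative fits that left out no replicate gave -0.95 to -0.86, also under 2-fold. In some of them the limma adjusted p was under 0.05, such as 0.0476 with the values as deposited and 0.0321 with a trended robust fit. In others it was higher, such as 0.135 with the Gapdh difference as a covariate and 0.345 with the 8 day 2 factor arrays alone. Only without BP14 replicate 2 did the difference exceed 2-fold (-1.06). The part of the Prdm14 level in the results below was not tested.

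**Figure D1:**
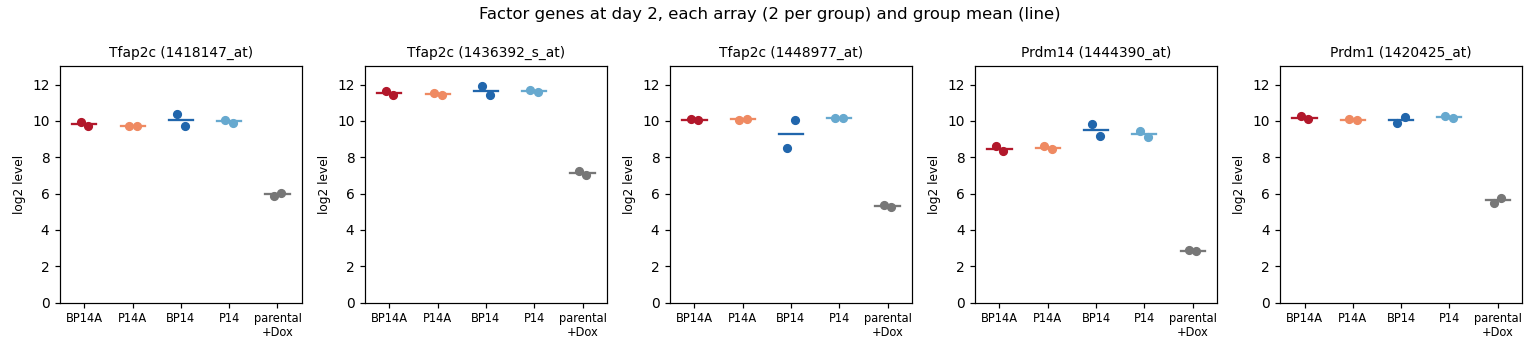
Log2 levels of the probe sets of Tfap2c (3), Prdm14 and Prdm1 at day 2, with a point for each array (2 per group) and a line for the group mean. All factor clones sit well above the parental cells; for Prdm14, the 4 arrays of BP14A and P14A cells (8.32 to 8.61) sit below the 4 of BP14 and P14 cells (9.11 to 9.83).

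Few autosomal genes differed with the Tfap2c transgene, and every gene past the threshold was lower with it. The threshold was a difference of 2-fold or more together with a limma adjusted p (Benjamini-Hochberg, over all 15497 genes) under 0.05. By this rule 11 genes fell, which is 0.0739% of those tested, and 0 rose. The FGF-responsive gene Etv4 (1.10, limma adjusted p = 0.0601) was just outside the threshold and passed it, as a higher gene, in 5 of the alternative fits. At an unadjusted limma p under 0.05, 653 genes (4.39%) were lower and 513 (3.45%) higher. The 4 arrays with the transgene lay below all 4 without it for 462 genes (3.11%) and above them for 324 (2.18%). The 11 genes code for the developmental transcription factors Sox1, Foxd4, Pou3f1 and Tox3, the immediate-early factor Egr1, the chemokine Cxcl12, the surface proteins Podxl, Gja1, Thy1 and App, and the enzyme Cda. Sox1 and Gja1 are named after their values were seen, because their arrays overlapped.

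The count rested on single arrays. It was 17 without BP14A replicate 1, 4 without BP14A replicate 2, 3 without P14A replicate 1, 8 without P14A replicate 2, 4 without BP14 replicate 1, 64 without BP14 replicate 2 (30 higher and 34 lower), 8 without P14 replicate 1 and 3 without P14 replicate 2. Egr1, Podxl and Sox1 passed in all 8 of these fits. With the 4 clones as the units in place of arrays, 0 genes passed in limma and the adjusted p of the 11 genes ran from 0.541 to 0.567, with 1 residual degree of freedom. That fit is too small to show whether the calls hold. The tests reported here measure the spread between duplicate arrays, pooled over all 16 groups of the series. The spread between clones of one kind was not measured. When the spread came from the 8 day 2 factor arrays alone, 0 genes passed, and the limma adjusted p was 0.2 for Egr1, 0.133 for Podxl and 0.276 for Sox1. With the mean of all probe sets of a gene, 5 of the 11 passed (Foxd4, Egr1, Gja1, Thy1 and Cda).

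Sox1, a transcription factor of the early neural plate, was below the dim level in 3 of the 4 factor groups. It read 0.00 and 1.18 in BP14A and 1.29 and 2.23 in P14A cells, against 6.82 and 5.05 in BP14, 2.17 and 3.61 in P14 and 7.95 and 6.76 in parental cells. The fitted main effect was -3.24 (SE 0.40, limma adjusted p = 0.000479), but only the BP14 and parental arrays were above the dim level, so the size of the fall is imprecise. With the mean of both Sox1 probe sets the difference was -1.72 and no longer passed (limma adjusted p = 0.266). P14A replicate 2 lay just above P14 replicate 1. The other Sox1 probe set was dim in all 4 groups.

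Foxd4, a forkhead factor of the early neural ectoderm, fell by 2.50 on the log2 scale (SE 0.41, limma adjusted p = 0.0148). Its levels were 5.43 and 4.36 in BP14A and 5.43 and 5.49 in P14A cells, against 9.09 and 7.62 in BP14 and 7.23 and 6.78 in P14 cells. The 2 sets of arrays did not overlap. Among the 11 genes, Foxd4 was the one with parental cells (4.80 and 3.90) below all 4 factor groups.

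Pou3f1 (Oct6), a POU factor of the primed epiblast and of neural and Schwann cells, had levels of 6.73 and 6.38 in BP14A and 7.57 and 7.39 in P14A cells, against 9.23 and 9.04 in BP14, 7.88 and 8.25 in P14 and 9.96 and 10.22 in parental cells. The arrays did not overlap, and the largest gap lay between the clones with the Blimp1 transgene (main effect -1.58, SE 0.27, limma adjusted p = 0.018). The other Pou3f1 probe set was dim in all 4 groups, and with the mean of both the difference of -1.55 no longer passed (adjusted p = 0.0769). Tox3, a high-mobility-group nuclear factor, read 6.37 and 4.92 in BP14A and 6.21 and 6.28 in P14A cells, against 8.21 and 7.34 in BP14 and 6.96 and 6.99 in P14 cells (main effect -1.43, SE 0.28, limma adjusted p = 0.0457). Its arrays did not overlap, and it passed in 2 of the 8 fits that left out an array. Tox3 has 1 probe set, and where every gene took the mean of its probe sets the adjusted p of Tox3 was 0.0602.

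Egr1, an immediate-early zinc finger factor that is switched on downstream of growth factor and ERK signalling, had differences of -2.44 with the Blimp1 transgene and -1.21 without it. It read 6.52 and 6.79 in BP14A and 7.00 and 7.63 in P14A cells, against 9.10 and 9.09 in BP14, 8.12 and 8.94 in P14 and 10.82 and 10.59 in parental cells. The main effect was -1.83 (SE 0.21, limma adjusted p = 0.000161), the arrays did not overlap, and all factor arrays were below the parental ones. When an array was left out, the difference stayed between -2.04 and -1.62.

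Podxl, a sialomucin of the cell surface, read 5.04 and 4.90 in BP14A and 5.85 and 5.98 in P14A cells, against 7.82 and 7.44 in BP14, 6.20 and 6.63 in P14 and 8.70 and 8.59 in parental cells (main effect -1.58, SE 0.18, limma adjusted p = 0.000161). The arrays did not overlap. A second Podxl probe set, with group means between 5.96 and 6.26, gave 0.28 (SE 0.32), and with the mean of both probe sets the difference of -0.65 no longer passed (adjusted p = 0.0769). The probe sets of Podxl thus disagree.

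Gja1 (connexin 43), which forms gap junction channels, had levels of 5.89 and 6.26 in BP14A and 7.69 and 8.23 in P14A cells, against 8.51 and 9.16 in BP14, 7.90 and 8.77 in P14 and 11.10 and 11.50 in parental cells. P14A and P14 arrays overlapped, and BP14A arrays stood below all others (main effect -1.56, SE 0.27, limma adjusted p = 0.0177). Of 5 further Gja1 probe sets, 4 gave -1.99 to -1.76, and the fifth was dim. Cxcl12, the chemokine that guides migrating germ cells later in development, read 3.66 and 4.30 in BP14A and 5.25 and 4.68 in P14A cells, against 6.54 and 6.44 in BP14 and 5.51 and 5.55 in P14 cells. Its arrays did not overlap (main effect -1.53, SE 0.29, limma adjusted p = 0.0333), a second probe set gave -2.37, and another, dim in every group, gave 1.10. With their mean the difference was -0.94 and no longer passed (adjusted p = 0.197).

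The other surface genes and the enzyme were lower by less. Thy1, a GPI-anchored glycoprotein, read 3.98 and 4.24 in BP14A and 4.70 and 5.28 in P14A cells, against 6.04 and 5.89 in BP14 and 5.53 and 5.89 in P14 cells (main effect -1.29, SE 0.22, limma adjusted p = 0.0175). App, the amyloid precursor protein, read 7.12 and 6.95 in BP14A and 7.40 and 7.66 in P14A cells, against 8.87 and 8.32 in BP14 and 8.12 and 8.17 in P14 cells (main effect -1.09, SE 0.20, limma adjusted p = 0.0296). Neither gene's arrays overlapped, and the 3 other App probe sets gave smaller values of -0.57, -0.28 and -0.06. With the mean of all App probe sets the difference was -0.50 and no longer passed (adjusted p = 0.157). Cda, which deaminates cytidine in pyrimidine salvage, read 5.02 and 4.37 in BP14A and 4.83 and 5.36 in P14A cells, against 7.65 and 6.68 in BP14, 5.39 and 5.60 in P14 and 9.44 and 9.66 in parental cells (main effect -1.44, SE 0.24, limma adjusted p = 0.0175). Its arrays did not overlap, but P14A replicate 2 and P14 replicate 1 were 5.36 and 5.39. Cxcl12 and App each passed in 1, Foxd4 in 2, Pou3f1 and Thy1 in 3, and Gja1 and Cda in 4 of the 8 fits that left out an array.

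**Figure D2:**
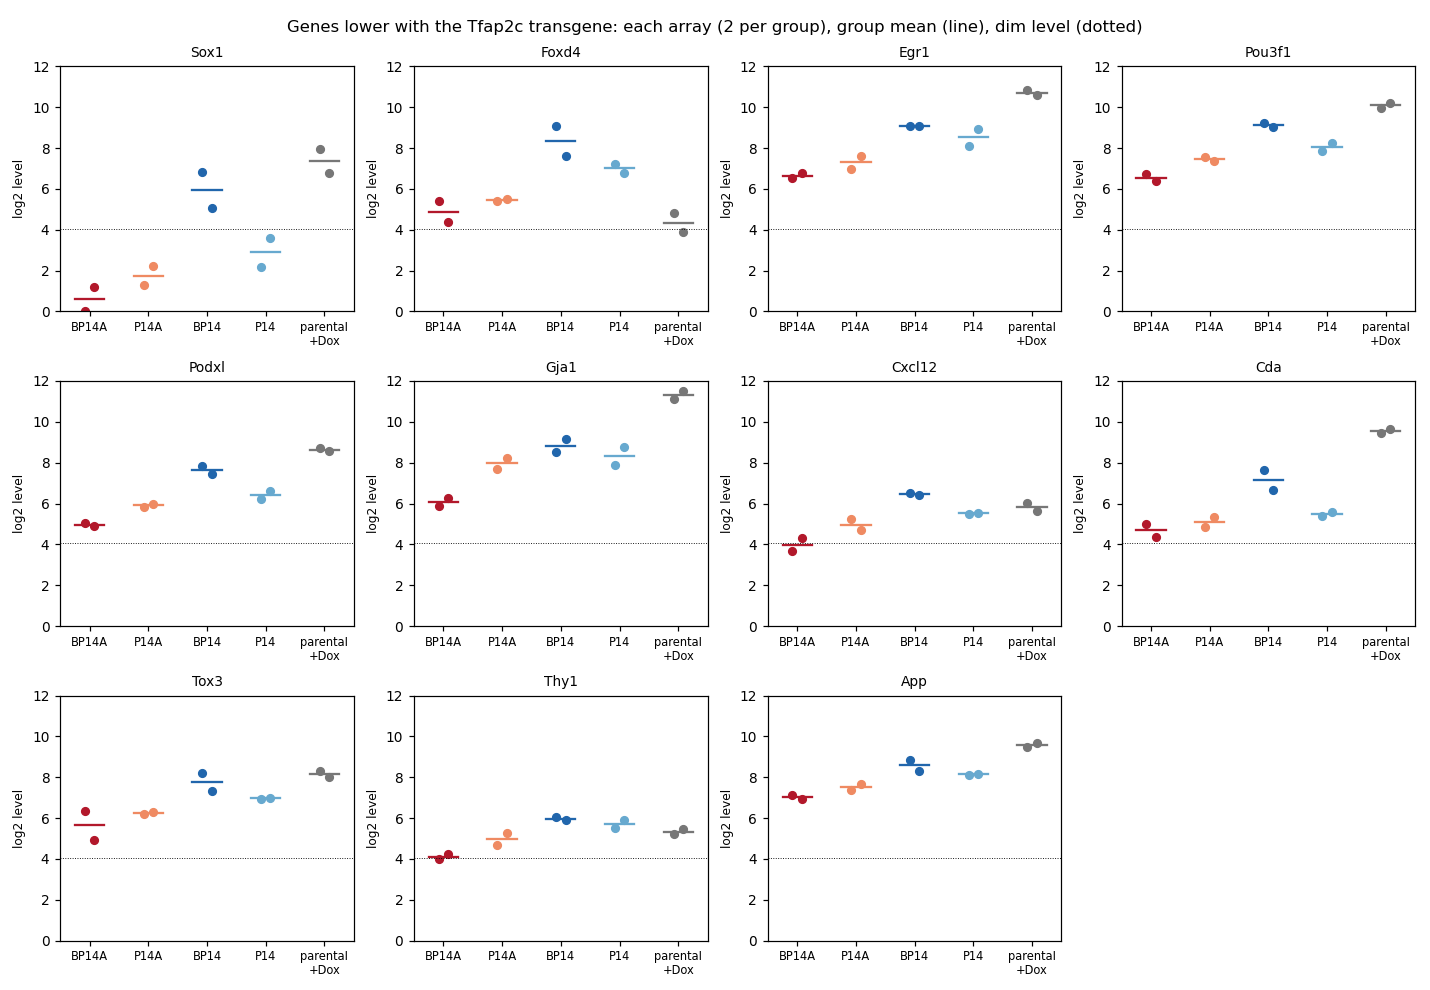
Log2 levels of the 11 autosomal genes that were lower with the Tfap2c transgene, with a point for each array (2 per group), a line for the group mean and a dotted line at the dim level of 4.05. BP14A cells have the lowest mean of the 4 factor groups and BP14 cells the highest in every panel; in 8 panels the parental mean is higher still.

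In all 11 genes the group means ran in the order BP14A, P14A, P14, BP14, an order found in 7.45% of all autosomal genes tested; the call itself favours part of it. Parental cells were above all 4 factor groups in 8 of the 11 (72.7%), against 31% of all genes tested. In cytokine-induced PGCLCs at day 4, 10 of the 11 were below the parental cells (90.9%, against 47% of all genes). BP14 replicate 1, the array with the low 5′ Gapdh signal, read higher than BP14 replicate 2 in 10 of the 11 (90.9%, against 56.4%). With the Gapdh difference as a covariate, 4 of the 11 passed (Sox1, Egr1, Podxl and Gja1); the other 7 had differences of -2.37 to -1.06 and adjusted p of 0.0585 to 0.133.

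The Tfap2c difference could be taken separately in each Blimp1 background, on arrays that the 2 differences do not share. With the Blimp1 transgene, BP14A minus BP14, 38 autosomal genes were lower (0.255%) and 7 higher (0.047%), and the 38 held all 11 genes of the main effect. Without it, P14A minus P14, 0 genes were lower and 0 higher in limma, with 249 (1.67%) and 244 (1.64%) at an unadjusted p under 0.05. The difference between the 2 backgrounds, the interaction, passed for 1 gene, Podxl (0.00672% of those tested).

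Podxl differed by -2.66 (SE 0.25) between BP14A and BP14 cells and by -0.50 (SE 0.25) between P14A and P14 cells, which gave an interaction of -2.16 (SE 0.35, limma adjusted p = 0.0316). This call was lost without BP14A replicate 1, BP14A replicate 2, P14A replicate 1, P14A replicate 2, BP14 replicate 1 or P14 replicate 1, and with the mean of both probe sets. For the other genes of the main effect the interaction ran from -4.21 in Sox1 (SE 0.80, limma adjusted p = 0.0883) upward and did not pass, so that a different response in the 2 backgrounds was not shown for them.

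The 38 genes that were lower with the Blimp1 transgene were compared in P14A and P14 cells, whose levels did not enter that difference. Both differences share one estimate of spread for each gene, to which all arrays contribute. The counts at an unadjusted p are therefore not independent of the choice of genes. Between P14A and P14 cells, 33 of the 38 had a negative difference (86.8%), against 54.6% of all autosomal genes tested, and 4 were lower at an unadjusted p under 0.05 (10.5%, against 1.67%). Those 4 were Foxd4 (-1.54), Egr1 (-1.21), Thy1 (-0.71) and App (-0.62). The sizes were smaller, with a median of -0.32 without the Blimp1 transgene and -1.60 with it. Because the 38 were chosen for large differences with the Blimp1 transgene, the choice itself favours a larger size there. The gap between the 2 medians therefore does not show a different response in the 2 backgrounds. Parental cells were above all 4 factor groups for 32 of the 38 (84.2%, against 31%), and BP14 replicate 1 read above BP14 replicate 2 for 34 (89.5%, against 56.4%). The number of calls, 45 in both directions (0.302%), was 7 without BP14A replicate 2, 10 without BP14 replicate 1 and 188 without BP14 replicate 2.

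**Figure D3:**
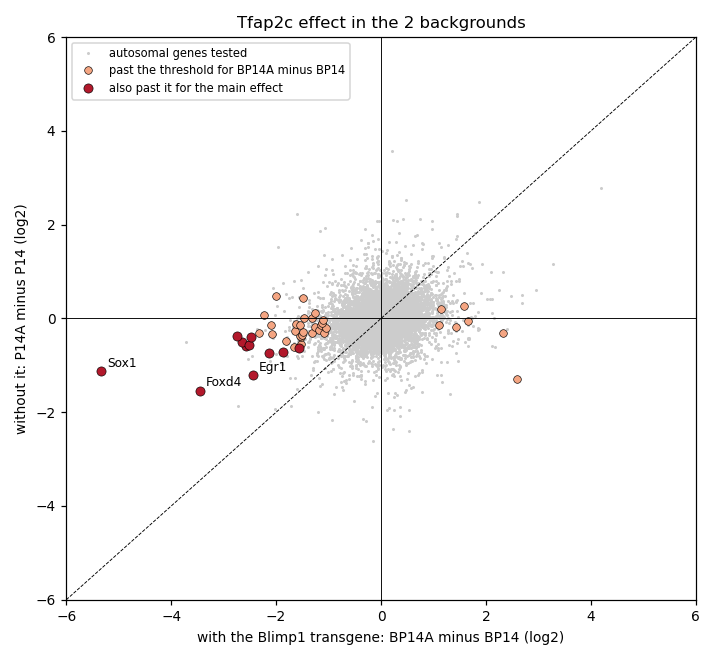
Difference with the Tfap2c transgene in the 2 Blimp1 backgrounds, in log2 units, with a point for each of 14878 autosomal genes; the dashed line marks equal differences. Orange and red points passed the threshold for BP14A minus BP14. The red ones, of which Sox1, Foxd4 and Egr1 are labelled, also passed for the main effect. The coloured points on the left lie near or below 0 on the vertical axis and above the dashed line. Their choice by the horizontal difference favours a place above that line.

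Among the 27 genes that were lower between the Blimp1 clones but not past the threshold in the main effect were several with known roles, chosen here after their values were seen. Greb1, an oestrogen receptor cofactor, had a difference of -2.33 (SE 0.47, limma adjusted p = 0.0344) with the Blimp1 transgene and -0.32 without it. Mmp2, a gelatinase that degrades matrix collagen, had -1.82 (SE 0.37, limma adjusted p = 0.0367) and -0.48. Both are on the list of AP-2 targets described in other tissues, of which 2 of 20 passed with the Blimp1 transgene, both lower (0.255% of all autosomal genes tested were), and 0 without it.

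Pxdn, a peroxidase of the extracellular matrix, had -2.10 with the Blimp1 transgene and -0.13 without it, and Wls, the carrier that WNT ligands need for secretion, had -1.62 and -0.11. The thrombin receptor gene F2r read 7.58 and 7.51 in BP14A cells, against 8.93 and 8.81 in BP14 cells, and the corresponding levels without the Blimp1 transgene were 8.86 and 8.79 in P14A cells, against 8.85 and 8.79 in P14 cells. F2r thus differed between the Blimp1 clones (-1.32, SE 0.20, limma adjusted p = 0.00372) and by 0.01 between the others; its interaction did not pass. Slc2a1, the main glucose transporter of early embryonic cells, had -1.04 and -0.20, and the antiproliferative p53 target Btg2 had -1.10 and -0.04.

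The 7 genes that were higher between the Blimp1 clones were Cx3cl1, Cxcl14, Gna14, Mep1b, Mir9-3hg, Rgcc and Slc15a1, named after their values were seen. Rgcc, a regulator of the cell cycle, read 8.63 and 8.83 in BP14A cells, against 7.61 and 7.02 in BP14 cells, while the arrays without the Blimp1 transgene lay at 7.35 and 7.19 in P14A cells, against 7.56 and 7.36 in P14 cells. Parental cells were below all 4 factor groups at 3.81 and 4.43. The chemokine Cxcl14 read 5.76 and 6.97 in BP14A cells, against 4.54 and 4.90 in BP14 cells (1.65, SE 0.28, limma adjusted p = 0.0106), and 5.69 and 5.76 in P14A cells, against 5.76 and 5.82 in P14 cells. Between P14A and P14 cells 5 of the 7 had a negative difference (71.4%, against 54.6% of all genes).

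AP-2 proteins bind the palindrome GCCNNNGGC, where N is any base. Among the promoters listed by RefSeq (GRCm38.p6), the 250 bases before the first listed start of each gene were searched for it; the motif reads the same on both strands and no other motif was searched. It was found in 0 of the 7 main-effect genes that had a listed promoter, in 5 of 27 lower genes of the Blimp1 clones (18.5%), in 2 of their 6 higher genes (33.3%), in 19.6% of 11892 autosomal genes tested and in 13.6% of all 27025 genes of the table. Windows around a match are shown for 3 of the 5 lower genes and for the 2 higher genes, with the motif in capitals. They only show which letters were matched. For Ccdc136 the match 126 bases before the start is shown, and another lies 37 bases before it. Gatm and Zmiz1, the other lower genes with matches, are left out. Cdc42ep3 codes for a regulator of the actin cytoskeleton; its window lies at chr17:79355092-79355110 (minus strand), F2r at chr13:95618684-95618712 (minus), Ccdc136 at chr6:29396439-29396467 (plus), Rgcc at chr14:79301655-79301683 (minus) and Cx3cl1 at chr8:94772138-94772166 (plus). A match is a run of letters and not a measured binding site.
Cdc42ep3: cctgcgccccGCCCTCGGC
F2r: cattgaagcgGCCGCAGGCgctctccgaa
Ccdc136: cctcggacgaGCCTGGGGCactttagtga
Rgcc: ccccgcccctGCCGGTGGCtataagacgg
Cx3cl1: tactgcgggcGCCGGGGGCggaggctgcc

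Members of the gene lists are named below by the rule for named genes or, where they did not pass and only a difference is given, after their values were seen. The counts at an unadjusted p under 0.05 are to be read against 4.39% lower and 3.45% higher among all autosomal genes tested. Genes of the germ cell programme did not pass the threshold. Of 15 tested members of an early germ cell list, 0 passed in limma in either direction, with a median main effect of 0.04 against -0.01 over all autosomal genes tested; at an unadjusted p under 0.05, Dnd1 and Tcl1 were higher and Prdm14 lower. Dppa3 (stella), a maternal and germ cell factor whose reporter the cells carry, read 12.91 and 12.70 in BP14A and 12.58 and 12.54 in P14A cells, against 12.71 and 12.54 in BP14, 12.63 and 12.50 in P14 and 5.43 and 6.10 in parental cells. Its factor arrays overlapped (main effect 0.08, SE 0.18, limma adjusted p = 0.942). Dnd1, an RNA-binding protein that germ cells need to survive, read 8.35 and 8.42 in BP14A and 7.51 and 7.73 in P14A cells, against 7.25 and 7.55 in BP14 and 7.41 and 7.37 in P14 cells (main effect 0.61, SE 0.20, limma adjusted p = 0.341). BP14A arrays were the highest. The receptor gene Kit had a main effect of 0.14. Of 24 later germ cell and meiosis genes, 0 passed in limma, 3 were higher and 2 lower at an unadjusted p under 0.05, and the median was 0.28. In the Blimp1 main effect (BP14A and BP14 minus P14A and P14) the median of this list was also 0.28, with 7 higher and 0 lower. The mean level of the list was 6.71 on BP14A replicate 1 and 6.00 on BP14A replicate 2. On the other factor arrays it lay between 5.90 and 6.34.

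Pluripotency genes did not pass the threshold either. Their main effects ran from -0.52 to 1.31 in the naive list and from -0.85 to 0.76 in the core list. Of 20 naive and 14 core pluripotency genes, 0 passed in limma, with 2 and 1 higher and 0 and 1 lower at an unadjusted p under 0.05. In the fixed set, main effects were 0.10 for Pou5f1, -0.04 for Sox2, -0.20 for Klf2 and 0.49 for Nanog, each with a limma adjusted p of at least 0.759. Nanog read 9.76 on BP14 replicate 1 and between 11.19 and 11.61 on the other 7 arrays. The de novo DNA methyltransferase gene Dnmt3b read 8.80 and 9.20 in BP14A and 10.73 and 11.14 in P14A cells, against 9.18 and 11.95 in BP14 and 10.09 and 11.30 in P14 cells. Its BP14 replicates differed by more than the main effect of -0.66 (SE 0.43, limma adjusted p = 0.759).

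Of 20 primed epiblast genes, 1 passed and was lower (Pou3f1), 16 had a negative main effect and the median was -0.32; of all autosomal genes tested, 7862 of 14878 were negative. At an unadjusted p under 0.05, 6 were lower, among them Foxd3 (-0.92), Fgf5 (-0.63) and Otx2 (-0.60), and 1 was higher, the NODAL antagonist gene Lefty2 (0.58). The median of the list was -0.52 with the Blimp1 transgene and 0.07 without it. A similar shift was seen in the Blimp1 main effect, where the median was -0.34 and 15 of the 20 were negative. There, 7 were lower and 0 higher at an unadjusted p under 0.05, against 1.63% and 2.56% of all autosomal genes tested. The lower levels in this list are thus not particular to the Tfap2c transgene. Fgf5, a growth factor gene of the primed epiblast, read 7.95 and 7.46 in BP14A and 8.40 and 8.49 in P14A cells, against 9.34 and 8.68 in BP14 and 8.44 and 8.35 in P14 cells. BP14A was the lowest and BP14 the highest group, P14A and P14 arrays lay between 8.35 and 8.49, and the limma adjusted p was 0.612. Otx2, a homeodomain factor of the epiblast and forebrain, read 7.43 and 6.04 in BP14A cells and between 7.96 and 8.24 on all other factor arrays.

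Of 20 neural genes, 1 passed and was lower (Sox1), and the median was -0.25. At an unadjusted p under 0.05, 6 of the 20 were lower (4.39% of all genes tested were) and 0 higher, the others being Sox11 (-0.95), Msi1 (-1.05), Nkx6-1 (-0.83), Pax6 (-0.62) and Nkx2-2 (-0.57). The mean level of the neural list lay near the dim level of 4.05. It was 3.88 and 4.21 in BP14A and 4.19 and 4.26 in P14A cells. In BP14 cells it was 4.90 and 4.51, and in P14 cells 4.44 and 4.49. The highest mean was on BP14 replicate 1, the array with the low 5′ Gapdh signal. The part of these limits in the neural count was not tested. Of 23 FGF and ERK response genes, 1 passed and was lower (Egr1), with a median of -0.18. The related Egr2 had -0.90 (limma adjusted p = 0.382), whereas Etv4, an ETS factor downstream of FGF, had 1.10 (limma adjusted p = 0.0601). Etv4 read 8.61 and 8.90 in BP14A and 9.07 and 9.14 in P14A cells, against 6.78 and 8.15 in BP14 and 8.06 and 8.35 in P14 cells. Its arrays did not overlap. It passed with the 60th percentile filter (adjusted p = 0.0396), with the filter on the day 2 factor groups (0.0498), with a trended robust fit (0.0329), with array weights (0.0267) and without BP14 replicate 2 (1.44, adjusted p = 0.00132). With the mean of its probe sets Etv4 had 0.76 (adjusted p = 0.43).

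The lists of lineages in which AP-2 factors act held no gene past the threshold. Of 19 trophoblast genes, 0 passed in limma, 2 were higher and 0 lower at an unadjusted p under 0.05, and the median was -0.06. Of 17 neural crest genes, 0 passed in limma, 3 were higher and 1 lower at an unadjusted p under 0.05, and the median was 0.27. Of 36 genes of epithelial junctions and keratins, 0 passed in limma, 1 was higher and 6 lower at an unadjusted p under 0.05, 28 were negative (7862 of 14878 over all autosomal genes tested) and the median was -0.19. Krt8, an early epithelial keratin, read 7.79 and 7.92 in BP14A and 8.18 and 7.92 in P14A cells, against 8.76 and 8.49 in BP14, 7.92 and 7.78 in P14 and 12.06 and 12.09 in parental cells. The factor arrays overlapped (main effect -0.29, SE 0.17, limma adjusted p = 0.74).

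Of 11 genes of the AP-2 family and its partners, 0 passed in limma, and 2 were higher and 0 lower at an unadjusted p under 0.05. Tfap2a read 5.29 and 5.25 in BP14A and 5.59 and 5.15 in P14A cells, against 4.32 and 5.11 in BP14 and 4.98 and 5.14 in P14 cells, a narrow separation with a main effect of 0.43 (SE 0.26, limma adjusted p = 0.731). Tfap2b had 0.57 (SE 0.23, limma adjusted p = 0.514). Markers of primitive streak and mesoderm (35 genes, median -0.04), Hox genes (22, median -0.07) and endoderm (21, median 0.06) had 0 genes past the threshold in limma, with 2, 0 and 0 higher and 3, 0 and 3 lower at an unadjusted p under 0.05.

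**Figure D4:**
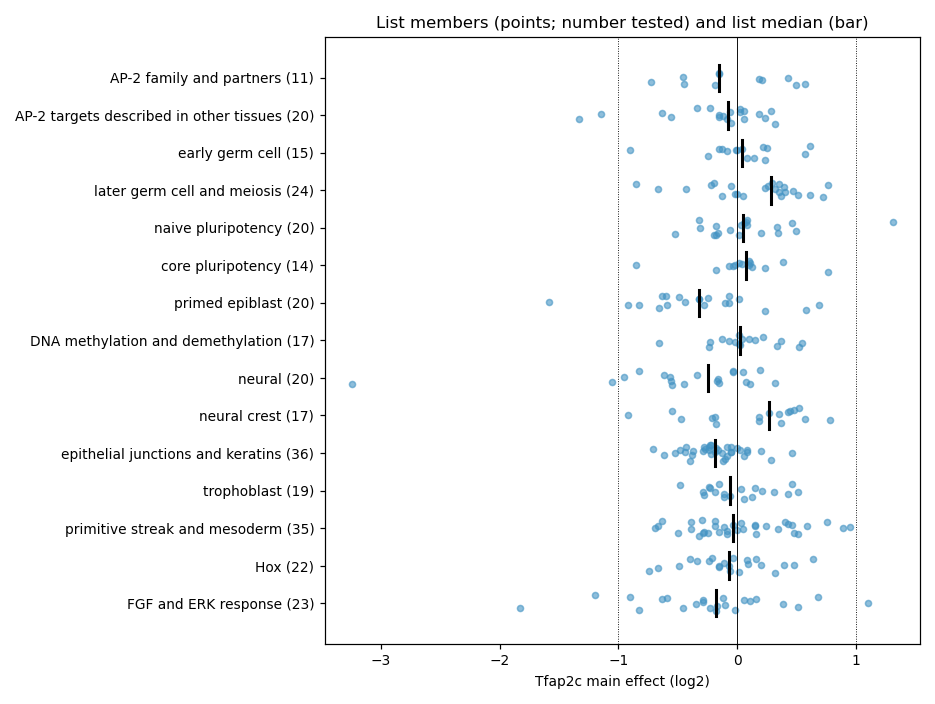
Tfap2c main effect in log2 units for the members of 15 gene lists, with a point for each gene, a black bar for the list median and the number of genes tested in brackets; dotted lines mark a 2-fold change in either direction. Medians lie between -0.32 (primed epiblast) and 0.28 (later germ cell and meiosis), and the far points on the left are Sox1 (neural), Egr1 (FGF and ERK response) and Pou3f1 (primed epiblast).

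The Blimp1 main effect in the same 8 arrays, BP14A and BP14 minus P14A and P14, had 0 autosomal genes past the threshold in limma, with 381 (2.56%) higher and 242 (1.63%) lower at an unadjusted p under 0.05. For the 11 genes that were lower with the Tfap2c transgene it ran from -0.69 to 0.94.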

How the data were processed

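For 32 one-colour Affymetrix arrays the authors deposited log2 values (0 to 14.59), one for each probe set. How they were summarised and normalized is not given in the sources used here. Array medians differed by 0.17, more than a tolerance of 0.1, so arrays were quantile normalized. Of 45101 probe sets, 64 controls were left out, and 34945 named 1 gene (932 named several and 9160 were not listed). Of these, 34741 matched the RefSeq gene table (GRCm38.p6). Each of 18193 genes took its brightest probe set. A gene was tested if 1 group mean reached the 40th percentile (log2 4.05).

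limma 3.58.1 (R 4.3.3, data.table version 1.17.8) fitted a mean for each of 16 groups (16 residual degrees of freedom). The fit was tested on simulated data. Deposited replicates had 0 identical pairs; p-values measure the spread between arrays, which may be technical. The number of arrays limits the precision.

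The members and the gene lists were chosen with earlier results of these data known. The 29 lists held 577 genes, 507 of them autosomal and tested; Nanos3 and T were not analysed here. The text names the genes past the threshold that were not dim and whose arrays did not overlap (up to 15 each way), up to 3 each way from each list, up to 6 each way for the interaction, and a fixed set of germ cell, pluripotency, epiblast and epithelial genes; the genes named outside this rule, after their values were seen, are stated as such. Alternatives changed normalization, probe sets, filters, the arrays fitted, weights and blocks; weights were added after seeing the data.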

Additional observations from a re-analysis of the deposited data

Results flagged for a closer look

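For 4 genes the difference with the Tfap2c transgene was itself different between the Blimp1 backgrounds by limma's interaction test. Podxl had an interaction of -2.16 (SE 0.35, adjusted p = 0.0316), with BP14A minus BP14 more negative than P14A minus P14. The other 3 are listed on the sex chromosomes and were lowest in P14 cells: Eif2s3y had an interaction of -9.23, Erdr1 of -6.41 and Mid1 of -5.40. Eif2s3y was also lower in BP14A than in BP14 cells (-1.96, SE 0.28, limma adjusted p = 0.00237). Erdr1 read 13.05 and 13.06 in BP14A and 12.86 and 12.50 in P14A cells, against 13.31 and 12.88 in BP14 and 6.20 and 6.42 in P14 cells. Mid1 read 9.79 and 9.08 in BP14A and 9.42 and 9.41 in P14A cells, against 10.30 and 9.73 in BP14 and 5.10 and 4.10 in P14 cells. The part of this clone difference in the autosomal results was not tested.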

How the results depend on the processing

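The number of autosomal genes past the threshold in the main effect (11) was 5 with the mean of all probe sets, 3 at an adjusted p under 0.01, 0 with the 8 day 2 factor arrays alone, 4 with the Gapdh covariate and 0 with clone means, a fit with 1 residual degree of freedom that is too small to bear on stability. It was 15 with the clone as a random block, 5 higher and 10 lower, of which 1 was among the 11 (consensus correlation -0.46). A negative correlation makes the error of a difference between clones smaller than for independent arrays. These 15 calls therefore do not allow for a spread between clones. Leaving out an array gave 3 to 64. As higher genes, Etv4 passed under 5 alternatives, Gm1673 with the 22 new arrays, Cxcl14 without BP14A replicate 1 and Pglyrp1 without P14 replicate 1. The 45 calls with the Blimp1 transgene became 25 with the mean of all probe sets, 13 at an adjusted p under 0.01, 81 with the 22 new arrays, 0 with the 8 arrays, 28 with the Gapdh covariate, 9 with array quality weights and 7 to 188 without an array. The 0 calls without the Blimp1 transgene became 4 with the 22 arrays, 8 with array weights and 0 to 8 without an array (8 without P14 replicate 2). The 1 interaction call became 0 with the mean of all probe sets, at an adjusted p under 0.01 and with the 8 arrays, 4 with the 22 arrays and 0 to 6 without an array. The 0 calls of the Blimp1 main effect became 1 with the values as deposited, 1 with the 60th percentile filter, 2 with the 22 arrays, 1 with array weights and 0 to 21 without an array (21 without BP14 replicate 2). The causes were not tested. Array weights came out equal within each pair (0.57 for both BP14 arrays), so they could not single out 1 array. Among named genes past the threshold in the main or the alternative fit, none changed direction (0 values). Changes of sign in genes that passed in neither fit, and in list medians, were not counted. Of 809 alternative values of 34 named genes that did not pass, 7 were past the threshold, 5 for Etv4, 1 for Prdm14 and 1 for Pax6. Of the genes described with the Blimp1 transgene, Btg2 passed in 7 and Pxdn and F2r in 19 of 22 alternatives. Of 174 alternative list medians, 6 moved by more than the replicate SD.

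With replicate number as a block, the counts were 11 for the main effect, 46 with the Blimp1 transgene, 0 without it, 1 for the interaction and 0 for the Blimp1 main effect. Deviations of same-numbered arrays from their group means correlated at 0.15 to 0.36 in all 6 pairs of the 4 groups, and Zfy2 read 5.22 to 5.60 on their replicate 1 arrays and 7.00 to 7.33 on their replicate 2 arrays. This is a hint from the data that same-numbered arrays share something; the labels do not say that the number marks a batch. All 11 genes of the main effect passed with the block.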
